A study of Mus musculus with 5 samples.

Results

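The regions described here are the taller SOX9 peaks of the embryonic limb at which no SOX9 peak was listed in the atrioventricular canal (AVC), the part of the heart in which the valve cushions form. A peak is a stretch of genome at which chromatin immunoprecipitation and sequencing (ChIP-seq) gave a pile of reads, and its height is the whole number the authors gave for it. A member is a distinct line of the limb list with a height of at least 51 that shares no base with an AVC peak or with a region of the input list. The rule found 1785 members among 9089 distinct limb peaks, which is 19.6% of them. Members were thus chosen by limb height and by overlap with AVC peaks and input regions, and values of these 3 measures are given as descriptions.

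SOX9 is a transcription factor with an HMG-box, a DNA-binding domain that bends the DNA it contacts. In the limb it is required for mesenchyme to condense and form cartilage, where it acts with SOX5 and SOX6 on genes of cartilage matrix such as those of type II collagen and aggrecan. It can bind DNA as a monomer or as a dimer, and in cartilage cells it is known to occupy many distal enhancers. In the AVC it is needed in the mesenchyme that fills the valve cushions.

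All 3 ChIP-seq samples came from wild-type C57BL/6 mice. SOX9 was precipitated with the same antibody from AVC (described in the labels as SOX9+ valve mesenchyme) and from limb buds (SOX9+ limb mesenchyme), both at embryonic day 12.5. Unprecipitated chromatin from whole heart at embryonic day 10.5 gave the input list, which is matched to neither tissue nor stage. The tissues were dissected and the protocol names no sorting of cells, and the labels give no number of embryos. Each group had 1 sample and 1 list, so the spread between replicates is unknown and nothing below is a test between tissues. The lowest height was 28 in the limb list and 8 in the AVC list, with 2603 AVC peaks. A limb-only peak is therefore one without an AVC peak in a shorter list with another minimum, and weaker AVC signal at the same place was not measured. The build named for the files is mm9, of which no gene annotation or sequence was used here, so members are given by position only, the labelled tissues could not be checked against their marker genes, and no sequence is shown.

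Members had a median height of 66, with a middle range (quartiles) of 57 to 82 and a highest value of 213. They were concentrated just above the minimum. A height of 51, just inside, was held by 86 members with a median width of 301 bp, and a height of 50, just outside, by 98 limb-only peaks with a median width of 289.5 bp. A height of at least 100 was reached by 221 members (12.4%), of at least 150 by 22, and of at least 200 by 2. The tall shared peaks, meaning the 452 input-free limb peaks of height 51 or more that overlapped an AVC peak, stood higher, with a median of 91.5, a highest value of 292 and 199 peaks (44.0%) at 100 or more.

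The limb-only share of limb peaks fell as height rose. Of the 8339 limb peaks that overlapped no input region, 91.6% overlapped no AVC peak. Among the 2237 of them with a height of at least 51, the share was 79.8% (Wilson 95% interval 78.1 to 81.4, counting error only, here and below). It was 97.2% (96.5 to 97.7) for heights of 28 to 34 and 94.6% (93.7 to 95.4) for heights of 35 to 50. From height 51 to 59 it was 88.3% (85.7 to 90.5), and from 60 to 79 it was 87.2% (84.7 to 89.3), so these neighbouring ranges were not separated by their intervals. It then stood at 79.1% (74.5 to 83.1) for 80 to 99, at 58.5% (53.2 to 63.6) for 100 to 149, and at 27.5% (18.9 to 38.1) for 150 to 292. Above a height of 150, limb-only peaks were thus the smaller group, 22 peaks against 58 that overlapped an AVC peak.

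**Figure D1:**
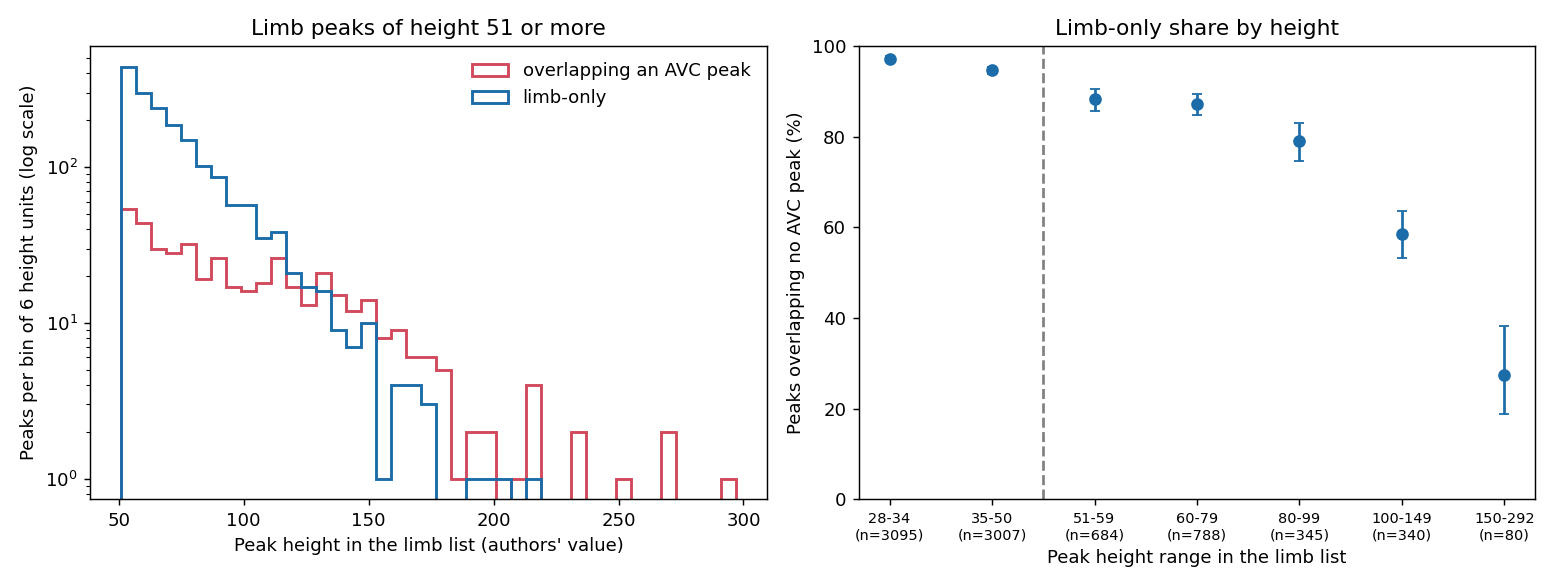
Left, number of input-free limb peaks of height 51 or more (log axis) by height in bins of 6, for limb-only peaks (the members, blue) and peaks that overlap an AVC peak (red). Right, percentage of input-free limb peaks that overlap no AVC peak in each height range, with Wilson 95% intervals and the number of peaks; the dashed line marks the minimum of 51. The share falls from 97.2% in the lowest range to 27.5% in the highest.

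The 12 tallest members lay on 12 different chromosomes, with heights from 163 to 213 and widths from 233 to 358 bp. The tallest was chr10:45613797-45614061 with a height of 213. Its nearest AVC peak was 1402 kb away and no other input-free limb peak lay within 50 kb. The second was chr19:10789207-10789447 with a height of 202, also alone within 50 kb and 815 kb from an AVC peak. The third, chr17:34258184-34258421, had a height of 199 and stood 449 bp from an input region. The remaining positions, in order of height, were chr18:63673176-63673486 (height 190), chr13:63272790-63273060 and chr9:118889554-118889832 (176 each), chr12:100279871-100280103 (174), chr3:141172727-141173084 (168), chr16:34125818-34126090 (167), chr11:69883615-69883939 and chr6:136414504-136414741 (165 each), and chr15:102086032-102086278 (163). No other input-free limb peak lay within 50 kb of 7 of the 12, close to the 54.3% of all members without one, another member lay within 50 kb of 2 and an AVC peak within 50 kb of 3. The closest of these to an AVC peak was the one on chromosome 6, at 2.219 kb from an AVC peak of height 18.

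Members were narrow, with a median width of 283 bp (exact binomial 95% interval 281 to 286) and quartiles of 258 and 322 bp. Limb-only peaks under the minimum had a median width of 304 bp (302 to 306), and tall shared peaks 275.5 bp (270 to 281). Width fell with height, so these medians compare sets of different heights. Among members it was 290 bp (285 to 295) for heights of 51 to 59, 282 bp for both 60 to 79 (278 to 288) and 80 to 99 (274 to 287), 274 bp (266 to 281) for 100 to 149, and 267.5 bp (240 to 309) for the 22 tallest. At matched heights, members and shared peaks had overlapping intervals in each of the 5 ranges from 51 upward. The widest gap between their medians was in the range of 100 to 149, where shared peaks stood at 262 bp (256 to 271).

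**Figure D2:**
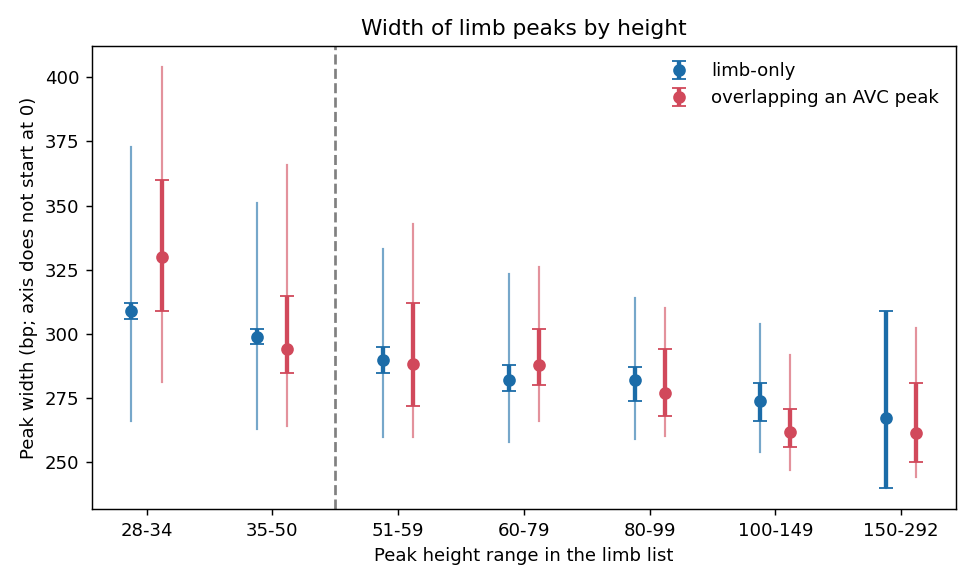
Peak width in bp (axis not from 0) by height range for limb-only peaks (blue) and limb peaks that overlap an AVC peak (red), input-free peaks only. Dots are medians, thick bars with caps their exact binomial 95% intervals and thin lines the quartiles; the dashed line marks the minimum of 51. Limb-only medians fall from 309 bp in the lowest range to 267.5 bp in the highest.

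A few members were much wider than the rest. A width of at least 400 bp was found for 8.46% of members, 9.07% of tall shared peaks and 16.6% of limb-only peaks under the minimum. The widest were chr4:144640887-144641821 (935 bp, height 53), chr1:164056978-164057906 (929 bp, height 64) and chr6:143506471-143507347 (877 bp, height 69). Their heights were near or below the median of 66, or a little above it in the last case. The narrowest were chr18:78464157-78464355 and chr17:66051705-66051903 (199 bp each) and chr6:144261293-144261493 (201 bp), with heights of 97, 67 and 75.

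Members occurred on all 20 chromosomes of the limb list, which holds no peak on Y. Their share of input-free limb peaks was 21.4% (20.5 to 22.3) in all. It was lowest on chromosome 17, where 54 of 381 peaks were members (14.2%, interval 11.0 to 18.0), and highest on chromosome 18, with 86 of 326 (26.4%, 21.9 to 31.4). Chromosome 15 followed with 25.3% (20.9 to 30.3). Chromosome 17 also had the lowest limb-only share among tall input-free peaks, at 64.3%, and chromosome 9 the highest, at 88.1%. These are the extremes of 20 chromosomes, picked after their values were seen. Chromosome X held 20 members, 1.12% of the total, and 1.26% of input-free limb peaks.

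Members lay near one another more often than other limb peaks lay near a member. Another member was found within 50 kb of 332 members, or 18.6% (16.9 to 20.5). The same was true of 11.0% of limb-only peaks under the minimum (10.2 to 11.8) and of 11.9% of tall shared peaks (9.27 to 15.3). The median distance from a member to the nearest other member was 276 kb (257 to 307). It was 347 kb (333 to 365) from lower limb-only peaks to a member and 354 kb (293 to 404) from tall shared peaks. Neighbouring members count each other, so the intervals treat linked values as separate.

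General crowding of limb peaks was close in the same sets at 50 kb. Any other input-free limb peak lay within 50 kb of 45.7% of members (43.4 to 48.0). The share was 44.4% for lower limb-only peaks (43.1 to 45.7) and 45.8% for tall shared peaks (41.3 to 50.4). At shorter range members were less crowded than lower limb-only peaks. Within 20 kb the shares were 19.7% of members (17.9 to 21.6) and 23.2% of lower limb-only peaks (22.2 to 24.3). Tall shared peaks stood at 19.5% there (16.1 to 23.4). Within 5 kb the shares were 5.66% of members (4.68 to 6.83) and 9.11% of lower limb-only peaks (8.40 to 9.87). Tall shared peaks were less crowded than members there, at 2.65% (1.53 to 4.58). The share of members with another member within 50 kb was 15.7% (13.0 to 18.8) at heights of 51 to 59, 20.2% (17.4 to 23.4) at 60 to 79, 19.0% (14.8 to 24.1) at 80 to 99 and 21.1% (16.0 to 27.3) at 100 to 149. These intervals overlap, so no trend with height within the members was separated from counting error. An input region lay within 50 kb of 50.8% of members (48.5 to 53.1), 47.6% of lower limb-only peaks (46.3 to 48.8) and 51.1% of tall shared peaks (46.5 to 55.7).

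**Figure D3:**
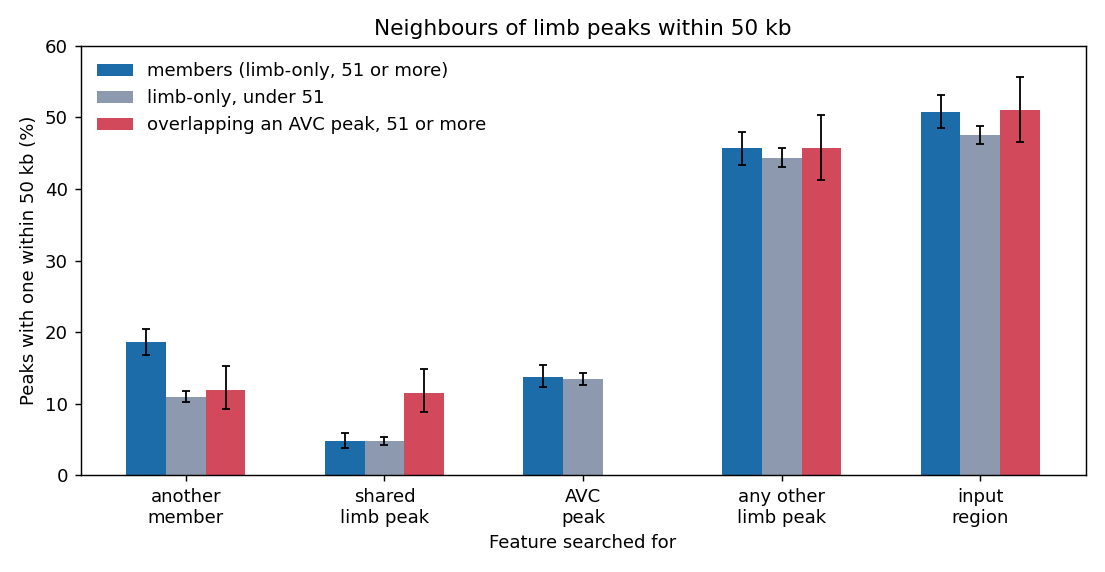
Percentage of limb peaks with another member, a shared limb peak, an AVC peak, any other input-free limb peak or an input region within 50 kb, for members (blue), limb-only peaks under 51 (grey) and tall shared peaks (red), with Wilson 95% intervals. Shared peaks overlap AVC peaks by definition and have no bar there. Members stand apart in the first group (18.6% against 11.0% and 11.9%) and shared peaks in the second.

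Part of this proximity was at very short range. Of 1765 spacings between neighbouring members on a chromosome, 16 were under 1 kb and 11 under 500 bp, while the median was 660 kb. A member lay within 1 kb of 1.79% of members (1.27 to 2.52) and of 0.36% of lower limb-only peaks (0.23 to 0.55). Close neighbours of any height were not more frequent for members than for lower limb-only peaks. An input-free limb peak lay within 1 kb of 2.91% of members (2.23 to 3.80) and 3.86% of lower limb-only peaks (3.40 to 4.39). For tall shared peaks the share was lower, at 1.33% (0.61 to 2.87), with an interval that overlaps that of members. The closest pair was chr16:29893881-29894202 and chr16:29894226-29894443, with heights of 88 and 53 and 23 bp between them. The wide peak on chromosome 1 named above was in the next closest pair, 72 bp from chr1:164056657-164056905. Whether such pairs are separate sites or one site listed as 2 peaks cannot be told from the lists. With members under 1 kb apart merged into 1 region, an alternative chosen after seeing the data, the share with another member within 50 kb was 17.2% (15.5 to 19.0).

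Chaining members at gaps of at most 50 kb left 1453 alone and placed 332 in 151 clusters. Of these clusters, 127 held 2 members and 24 held 3 or more, up to 5. The 24 larger clusters held 78 members and spanned 2.01 to 90.3 kb. Members in them had a median height of 67.5, against 69 in clusters of 2 and 65 for members alone, so heights were close in the 3 sets. An AVC peak lay within 50 kb of 17 of the 78 (21.8%), of 15.4% of members in clusters of 2 and of 13.1% of members alone. The 17 came from 8 of the 24 clusters. Members of a cluster can share an AVC peak, so they are not separate values and no trend with cluster size is drawn.

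The cluster with the largest summed height was chr8:109989201-110068878, with 5 members in 79.7 kb. Its heights were 105, 127, 94, 93 and 146 from left to right, with gaps of 6.867, 5.876, 43.1 and 21.8 kb. Every member of it was thus well above the median of 66. No AVC peak lay inside, the nearest being 1211 kb away, and the nearest shared limb peak was 1638 kb away. The other cluster of 5, chr13:32062698-32140606, had heights of 141, 78, 80, 94 and 85 in 77.9 kb. It differed from the first in holding a limb peak shared with the AVC, and the AVC peak there stood 2.951 kb from the third member. It was the only one of the 24 clusters with a shared peak inside.

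The clusters of 4 differed in height. In chr6:30554392-30644727 the heights were 68, 82, 60 and 102, and 5 limb-only peaks under the minimum lay between them. Its last member, chr6:30644413-30644727, was 483 bp from an AVC peak of height 17, so this is a place where limb and AVC peaks lie side by side without overlap. In chr12:80775797-80820690 the heights were 63, 55, 55 and 53, all below the median of 66, with no other input-free limb peak inside and the nearest AVC peak 140 kb away. Of the 20 clusters of 3, the one with the largest summed height was chr7:122759185-122781590, with heights of 133, 150 and 53 in 22.4 kb, 455 kb from an AVC peak. The shortest of the 24 was chrX:6590717-6592726, with 3 members in 2.01 kb.

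**Figure D4:**
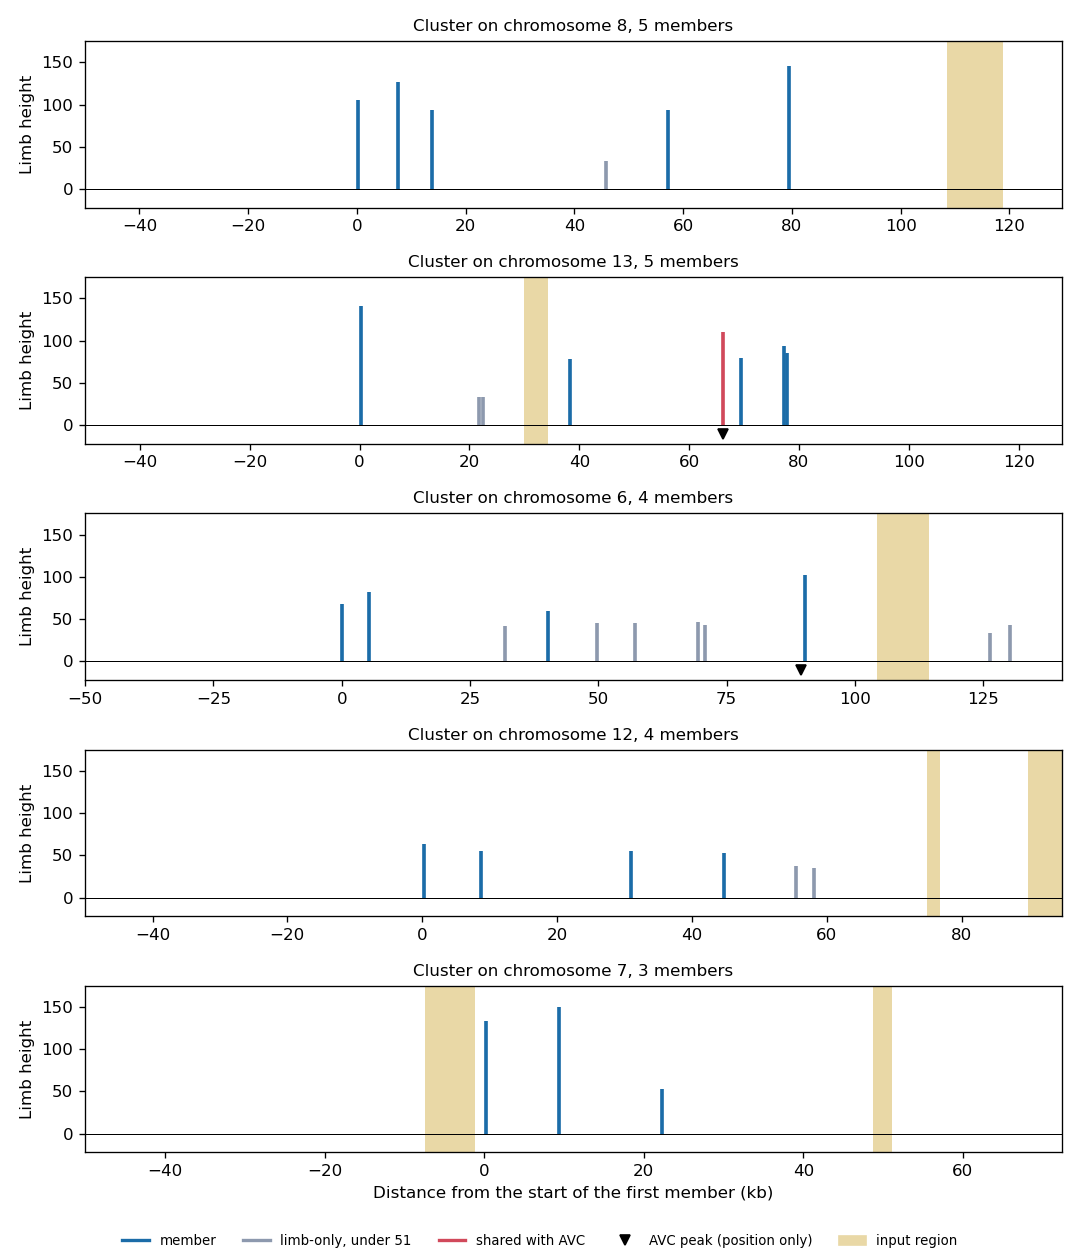
The 5 clusters with the most members (the fifth is the one with the largest summed height among 20 clusters of 3), drawn to scale as limb peak height against distance from the start of the first member in kb, with 50 kb on either side. Blue bars are members, grey bars limb-only peaks under 51, red bars limb peaks shared with the AVC, triangles AVC peaks (position only) and shaded spans input regions. AVC peaks appear in 2 of the 5, on chromosomes 13 and 6.

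The larger clusters were spread over 11 chromosomes. Chromosome 6 held 6 of the 24, and chromosomes 4 and 8 held 3 each, while chromosome 6 held 6.78% of all members. Chromosome 6 was picked as the highest after the values were seen. Some of its clusters lay near one another, such as chr6:143448154-143507347 and chr6:143987806-144031142, so they may not be separate. An AVC peak lay inside 3 of the 24 and within 50 kb of 8, and none lay within 100 kb of 14. Limb-only peaks under the minimum lay inside 8 of them and input regions inside 5.

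Within 50 kb of an AVC peak, members and lower limb-only peaks had similar shares with overlapping intervals. An AVC peak lay within 50 kb of 246 members (13.8%, 12.3 to 15.5) and of 13.4% of lower limb-only peaks (12.6 to 14.3). The median distance to the nearest AVC peak was 263 kb (246 to 281) for members and 290.0 kb (277 to 301) for the lower peaks. At 20 kb the shares were 6.95% (5.86 to 8.22) and 5.11% (4.57 to 5.70), a gap with intervals that do not overlap. At 10 kb they were 3.36% (2.62 to 4.30) and 2.39% (2.03 to 2.82), and at 100 kb 25.9% (23.9 to 28.0) and 22.9% (21.9 to 24.0), with overlapping intervals. The gap at 20 kb was not particular to AVC peaks. An input region lay within 20 kb of 27.7% of members (25.6 to 29.8) and 24.1% of lower limb-only peaks (23.0 to 25.2). Among members, the shares within 50 kb of an AVC peak had overlapping intervals across heights, with 11.4% (9.13 to 14.2) at heights of 51 to 59 and 13.6% (9.49 to 19.0) at 100 to 149.

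**Figure D5:**
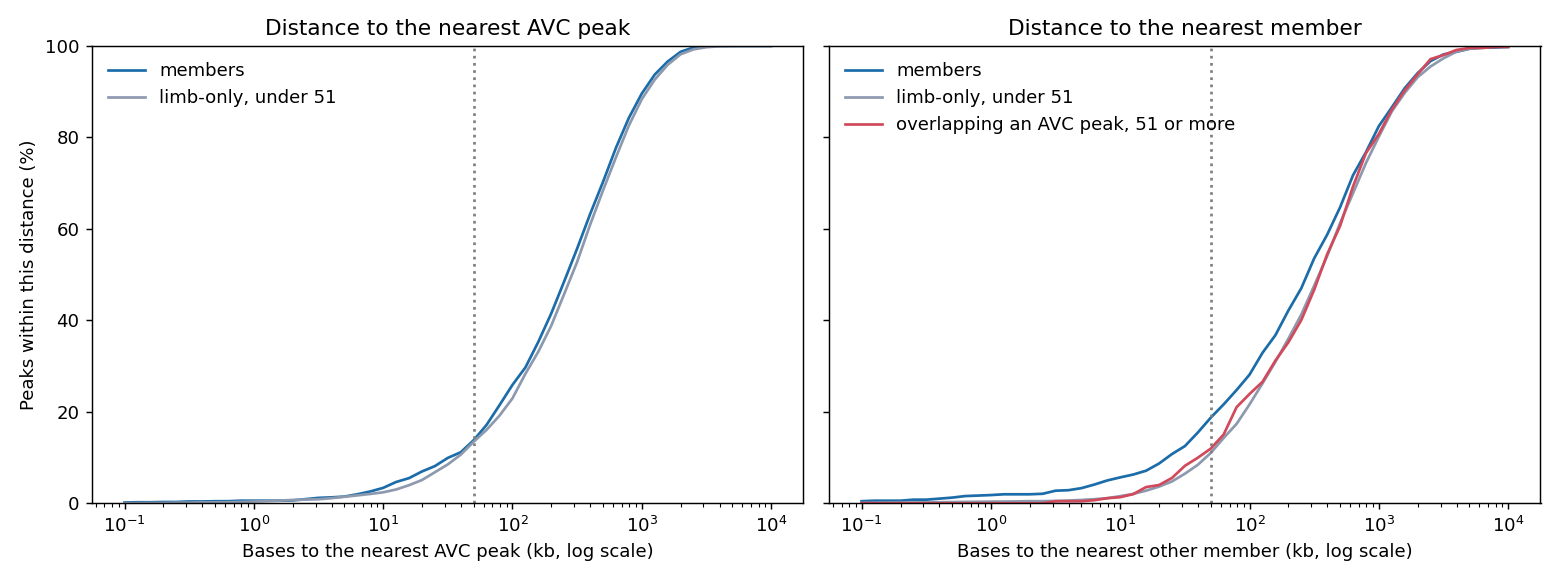
Cumulative percentage of limb peaks against the bases to the nearest AVC peak (left) and the nearest other member (right), in kb on a log axis, for members (blue), limb-only peaks under 51 (grey) and, on the right, tall shared peaks (red); the dotted line marks 50 kb. On the left the curves lie close together at 50 kb (13.8% and 13.4%), with members higher at 20 kb (6.95% against 5.11%). On the right members lie above both other sets at 50 kb (18.6% against 11.0% and 11.9%), while the curves meet at the longest distances.

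Few members missed an AVC peak narrowly. An AVC peak stood within 500 bp of 8 members and within 1000 bp of 10 (0.56%). The nearest were chr1:155550571-155550801 (height 54, 26 bp between), chr7:20300723-20301022 (height 90, 79 bp) and chr12:30719566-30719801 (height 64, 81 bp). Each faced an AVC peak of height 8, the lowest in that list, which had a median height of 9. The AVC peaks nearest to the other members within 1000 bp had heights from 8 to 17. At the other end, the 3 members farthest from an AVC peak lay together on chromosome 10, at chr10:115248858-115249125 (3880 kb), chr10:115808210-115808499 (3320 kb) and chr10:115971386-115971631 (3157 kb), with heights of 76, 82 and 61.

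Of the 246 members within 50 kb of an AVC peak, 76 (30.9%) had a nearest AVC peak that itself overlapped an input-free limb peak. The nearest AVC peak of the other 170 overlapped none. Among all 2603 AVC peaks, 26.9% overlapped an input-free limb peak. Most AVC peaks next to members thus overlapped no input-free limb peak, as was the case over the whole AVC list. Overlap with a limb peak over an input region was not counted here. The median height of the 220 AVC peaks nearest to these members was 9, the same as over the whole AVC list.

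Shared limb peaks were distant from most members. One lay within 50 kb of 85 members (4.76%, 3.87 to 5.85) and of 4.72% of lower limb-only peaks (4.20 to 5.29), with median distances of 1090.4 and 1193 kb. Tall shared peaks had another shared peak, of any height, within 50 kb more often, at 11.5% (8.88 to 14.8). For a nearby member, the intervals of members and tall shared peaks were apart at 50 kb but met at 100 kb, with 28.1% of members (26.1 to 30.3) and 23.9% of tall shared peaks (20.2 to 28.0).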

How the data were processed

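SOX9 ChIP-seq peak lists of limb and AVC at embryonic day 12.5 and a region list of input chromatin from heart at embryonic day 10.5 were used, 1 per sample. BWA and mm9 appear in the submitters' processing notes, with neither version nor role. For the caller of the peaks and for what its height counts, nothing is given in the sources used here. The heights in the deposited lists were treated as signal and compared only within a list. Read depth is unknown.

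The limb list has 9725 lines, and 636 repeats of a line were dropped. Input regions had a median width of 6703 bp; 750 limb peaks over them were left out, 192 of them with a height of at least 51. Overlap meant at least 1 bp in common. Distances are bases between edges; starts were converted to count from 1. Positions named are the 12 tallest members, the 5 clusters with the most members (ties by summed height), and the 3 nearest to and farthest from an AVC peak, widest and narrowest; others were chosen after their values were seen. Members, lists and measures were chosen with earlier results of these data known. Shares have Wilson and medians exact binomial 95% intervals, which cover counting error only. Joining peaks to genes and SOX motifs were planned only with mm9 annotation or sequence and were not run; the expression table was not used. Overlap and clustering were tested on simulated data and checked with bedtools. The tools were scipy 1.17.1, numpy 2.4.6, matplotlib 3.10.9 and pandas 2.3.3 in Python 3.11.15. Alternatives are given in the closing section.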

Additional observations from a re-analysis of the deposited data

How the results depend on the processing

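Across 67 recomputed values, 42 stayed within the main interval, or within 1.5 times for counts. With a height minimum of 40 there were 3318 members, 80 clusters of 3 or more, a limb-only share of 85.8%, a median width of 289 bp and another member within 50 kb of 26.3%. With a minimum of 70 these were 769, 3, 70.7%, 277 bp and 11.8%. With only AVC peaks of height 12 or more, the limb-only share was 87.6%, and 2.81% and 3.67% of members had a shared peak or an AVC peak within 50 kb, at a median of 1440 kb from an AVC peak; the AVC list is then shorter. Another member within 50 kb was found for 20.7% with peaks over input regions kept and for 26.3% with repeated lines kept, where a repeat is its own neighbour; that setting gave a limb-only share of 77.6%. At 20 kb, 8.68% had another member, 1.74% a shared peak and 6.95% an AVC peak, with 7 clusters; at 100 kb these were 28.1%, 9.24%, 25.9% and 50. Members had another member nearby more often than lower limb-only peaks did under the 10 alternatives in which this was recomputed, for example 11.8% against 5.59% with a minimum of 70. The setting with repeated lines kept is among these, and there the repeats raise the share of members by construction. With a minimum of 40, tall shared peaks had a member nearby in 23.2%, closer to the 26.3% of members. No paired analysis was possible because each group has 1 sample. With 1 list per tissue and unknown depth, neither biological spread nor weak AVC signal at members could be measured. The SOX motif alternative was not run.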

Other observations

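At the scale of fixed 1 Mb windows of mm9, the windows with the most members were chr13:32000001-33000000, with 8 members among 22 input-free limb peaks and 4 AVC peaks, and chr6:143000001-144000000, with 8 members among 10 input-free limb peaks and 2 AVC peaks. In the second window most input-free limb peaks were thus members. The next window was chr11:89000001-90000000, with 7 members among 11 input-free limb peaks and no AVC peak. Over all chromosomes, members were 21.4% of input-free limb peaks. These windows were picked for their number of members, so a high share in them is partly fixed by the choice. Among windows with any input-free limb peak or AVC peak, 649 held 1 member and 1140 held none. The longest stretches between neighbouring members were on chromosome X, at 35.2, 28.1 and 18.7 Mb. Limb peaks of any height were few there, with 105 of the 8339 input-free ones, of which 19.0% were members.

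Lines given more than once in the limb list were not spread evenly. More than 1 line was given for 4.71% of members, 5.62% of lower limb-only peaks and 18.4% of tall shared peaks.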
